A study of Arabidopsis thaliana with 2 samples.

Results

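The genes described here are 36 Arabidopsis thaliana loci of the phenylpropanoid, flavonoid and lignin pathways, listed by locus identifier, out of 27444 nuclear protein-coding genes. They comprise 9 enzymes of the general pathway, 9 of the flavonoid and anthocyanin branch, 7 of the lignin branch, and 11 MYB, bHLH and WD40 regulators. Binding of the circadian clock protein CCA1 was mapped in them by ChIP-seq (chromatin immunoprecipitation followed by sequencing). Both libraries came from whole Col-0 seedlings aged 14 days of the cca1 lhy double mutant that carried a FLAG-tagged CCA1 under the CCA1 promoter. Seedlings were grown at 22 °C with 2% sucrose under 12 h of light and 12 h of darkness, and fixation took place 1 h into the light period. An Ion PGM read the first library (IonPGM) and an Illumina GAII the second (Illumina), and both immunoprecipitations used an anti-FLAG antibody. Whether the libraries share plants or precipitated DNA is not stated in the labels. There was 1 library per sequencer, so no value has a replicate error, and differences between the lists cannot be told apart from differences in library kit or sequencer. Whole seedlings mix cell types, so a peak cannot be assigned to the cells in which a gene is used.

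CCA1 is a MYB-type repressor whose level is highest around dawn. Phenylpropanoid metabolism starts from phenylalanine, which PAL, C4H and 4CL convert into coumaroyl-CoA. That intermediate feeds the monolignols from which lignin is built, and, through chalcone synthase, the flavonols and anthocyanins that act as sunscreens and pigments. Flavonol genes are switched on by MYB11, MYB12 and MYB111. Anthocyanin genes are switched on by complexes of a MYB such as PAP1, a bHLH such as TT8 and the WD40 protein TTG1, while MYBL2 and MYB4 act as repressors.

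The deposited lists held 2901 IonPGM and 2954 Illumina peaks, of which 2848 and 2888 were nuclear, and 52.2% and 51.7% of the nuclear peaks overlapped a peak of the other list. For each gene, all peaks within 1000 bp of the gene were taken. A peak was called a gene-body peak when its midpoint lay more than 200 bp inside both ends, and a gene-end peak otherwise. The score of a peak is the authors' own and its scale is not given, so it is expressed as a percentile, the share of peaks of the same list with a score no higher. Read depth is unknown. The gene annotation gave no strand, so the promoter end could not be told from the other end, and ends are named by their lower or higher coordinate.

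Of the 36 genes, 18 had a peak of either list and 18 had none. Among all protein-coding genes 17.7% had one. An IonPGM peak was present at 16 genes (12.1% of all genes) and an Illumina peak at 9 (12.7%). Only 3 genes, MYBL2, PAP1 and PAL3, had a shared peak, meaning that a stretch common to both lists reached the window. That is 8.33%, beside 6.56% of all genes, so the group's share of sites found by both sequencers was near the background. The IonPGM peaks instead lay mostly inside the genes: 11 of the 36 (30.6%) had an IonPGM gene-body peak, beside 3.0% of all genes. An Illumina gene-body peak was present in 3 genes (8.33%, beside 1.91%). Gene-end peaks were present at 5 genes in the IonPGM list (13.9%, beside 9.51%) and at 6 in the Illumina list (16.7%, beside 11.1%). These are counts of named genes in single libraries and were not tested.

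**Figure D1:**
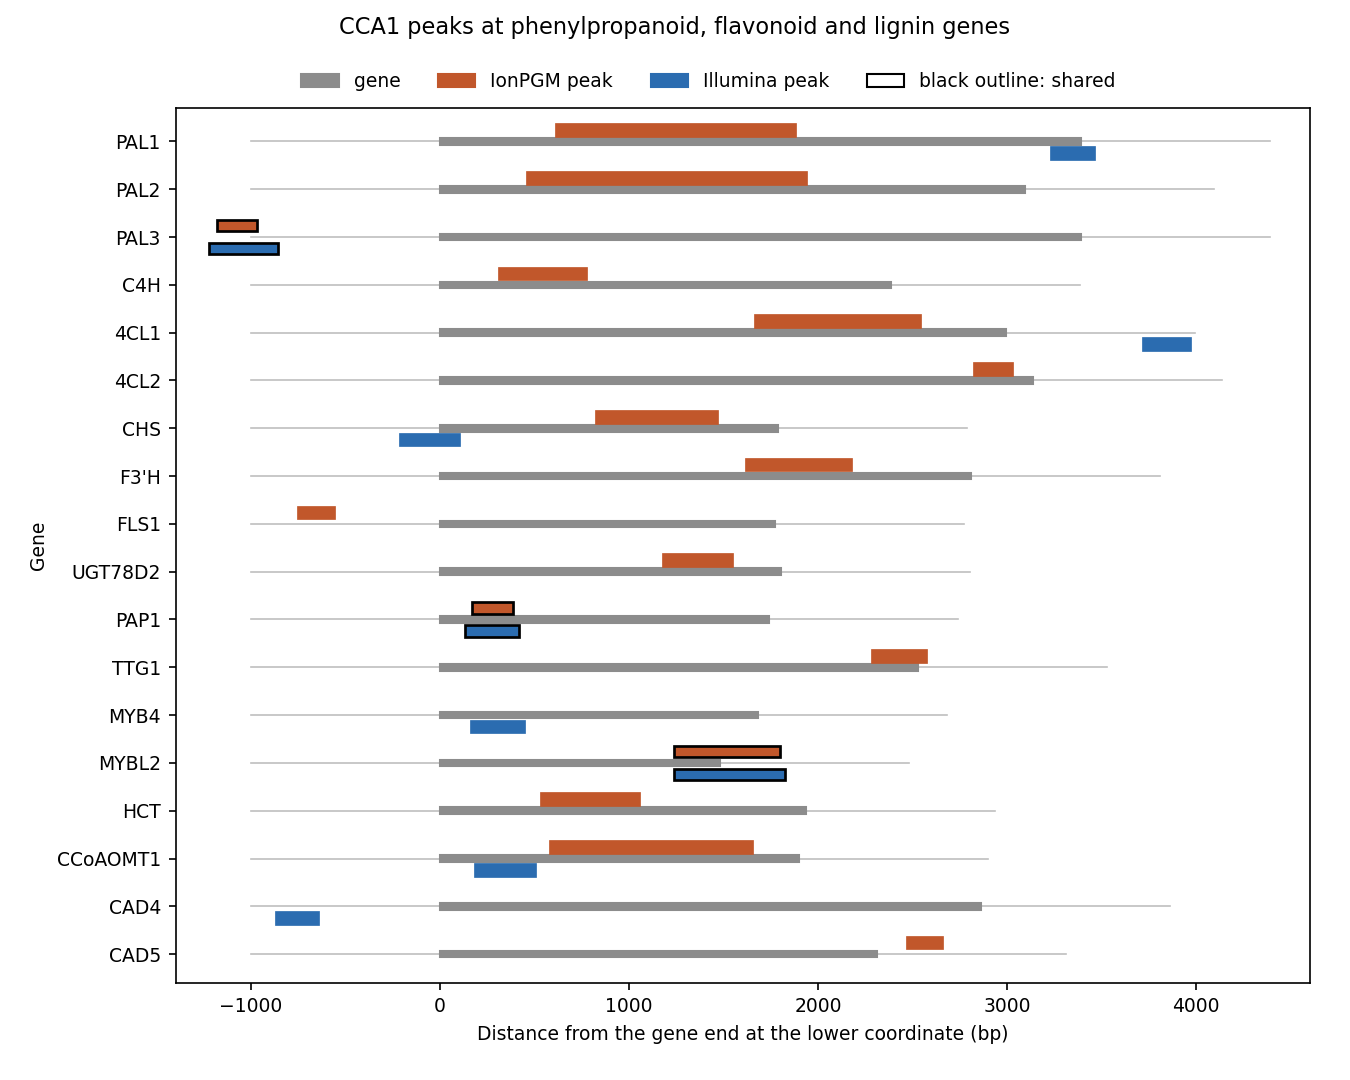
Position of every peak at the 18 genes with a peak, as distance in bp from the gene end at the lower coordinate, with genes as grey bars, the 1000 bp windows as thin lines, IonPGM peaks above and Illumina peaks below each gene. IonPGM peaks lie inside 11 genes, while black-outlined shared peaks occur at PAL3, PAP1 and MYBL2.

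The strongest site found by both sequencers lay at MYBL2 (AT1G71030), a single-repeat MYB protein that represses anthocyanin synthesis. The IonPGM peak at chromosome 1: 26796291 to 26796852 had percentile 87.0 (rank 378 of 2901). The Illumina peak at chromosome 1: 26796292 to 26796878 had percentile 93.8 (rank 184 of 2954). Both spanned the end of the gene at its higher coordinate and began within 1 bp of each other, with 561 bp in common. They were also broad for gene-end peaks, at 562 and 587 bp, where the median gene-end peak was 245 bp wide for IonPGM and 276 bp for Illumina. LPR2 (AT1G71040) also has an end within 1000 bp of these peaks, but MYBL2 was the nearest gene to both midpoints, at 39.5 and 53.0 bp.

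PAP1 (AT1G56650, also MYB75), the MYB activator of anthocyanin genes, carried a weaker shared site inside the gene. The IonPGM peak at chromosome 1: 21233724 to 21233940 had percentile 20.4, and the Illumina peak at chromosome 1: 21233686 to 21233969 had percentile 21.1. Both lists thus placed it well below the middle of their ranks. The IonPGM peak lay wholly inside the Illumina peak, with midpoints 277 and 272.5 bp inside the end at the lower coordinate. A further unshared IonPGM peak, at percentile 8.14, lay beyond the window, with its near edge 1239 bp from PAP1.

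Besides MYBL2 and PAP1, MYB4 and TTG1 had a peak in the window, so that 4 of the 11 regulators did (36.4%). A peak of either list was present at 17.7% of all genes. MYB4 (AT4G38620), a repressor of C4H and other phenylpropanoid genes, had an Illumina peak at chromosome 4: 18053526 to 18053801 with percentile 36.5. Its midpoint lay 303.5 bp inside the gene, and the nearest IonPGM peak was 12213 bp from it. TTG1 (AT5G24520), the WD40 scaffold of the anthocyanin complexes, had an IonPGM peak across its higher end at chromosome 5: 8372603 to 8372888 with percentile 32.9 and no Illumina peak. A strong shared site lay 3531 bp beyond TTG1 (IonPGM percentile 95.8, Illumina percentile 94.3), but its nearest gene was DMR6. The flavonol activators MYB11, MYB12 and MYB111, the bHLH genes TT8, GL3 and EGL3, and PAP2 (MYB90) had no peak of either list in the window. PAP2 had a shared peak 3017 bp away, at chromosome 1: 24760642 to 24760876 in the IonPGM list (percentile 88.6) and 24760623 to 24760924 in the Illumina list (percentile 96.4). The gene nearest to it was MYB114, a further anthocyanin MYB of the same tandem cluster, from which it lay 1670 bp away.

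The general pathway enzymes, which supply all branches, had IonPGM gene-body peaks in 5 of 9 genes (beside 3.0% of all genes) and Illumina gene-body peaks in 0 of 9 (beside 1.91%, at which 0 of 9 is near the background). PAL1 and PAL2 encode phenylalanine ammonia-lyases, the entry enzymes of the pathway. The IonPGM peak inside PAL2 (AT3G53260), at chromosome 3: 19744480 to 19745951, was 1472 bp wide and had percentile 79.4. It covered 47.5% of the gene, and only 6 of the 2848 nuclear IonPGM peaks were at least as wide. PAL2 had no Illumina peak in the window; a shared site lay 2589 bp beyond the gene, nearest to AT3G53270, with an IonPGM percentile of 55.7 and an Illumina percentile of 92.0. The IonPGM peak inside PAL1 (AT2G37040), at chromosome 2: 15557982 to 15559244, was 1263 bp wide, covered 37.3% of the gene and had percentile 45.7. PAL1 also had an Illumina peak of percentile 27.0, but that peak lay across the higher end of the gene at chromosome 2: 15560599 to 15560828. A gap of 1354 bp separated the peaks of the 2 lists at PAL1.

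4CL1 (AT1G51680), a 4-coumarate:CoA ligase, had the highest-ranked IonPGM peak of the group, at percentile 90.1. It lay inside the gene at chromosome 1: 19160414 to 19161285 and was 872 bp wide. Its Illumina peak, at percentile 51.5, lay instead outside the higher end, with its midpoint 852 bp from it, at chromosome 1: 19162465 to 19162713. C4H (AT2G30490), cinnamate 4-hydroxylase, had an IonPGM peak of 460 bp inside the gene at percentile 49.4 and its nearest Illumina peak was 11875 bp from the gene. The IonPGM peak of 4CL2 (AT3G21240) was only 200 bp wide, at percentile 29.4, and its midpoint was 209.5 bp inside the end, just within the limit of 200 bp for a gene-body peak. PAL4, 4CL3 and 4CL5 had no peak in the window. The peak of 4CL2 was the nearest IonPGM peak to its neighbour 4CL5, 4989 bp away.

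PAL3 (AT5G04230) was the third gene with a shared peak, but its call was marginal. The IonPGM peak at chromosome 5: 1159386 to 1159601 (percentile 61.0) reached only 33 bp into the window, and the Illumina peak at chromosome 5: 1159348 to 1159710 (percentile 92.7) reached 142 bp into it. Both midpoints lay more than 1000 bp from PAL3 and were nearer to AT5G04220, the SYTC gene, at 549.5 and 585.0 bp. Without PAL3 the group holds 2 of 36 genes with a shared peak, the regulators MYBL2 and PAP1. With the midpoint of the common stretch required in the window, which drops PAL3, 6.26% of all genes had a shared peak. The count of 2 is near that background.

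**Figure D2:**
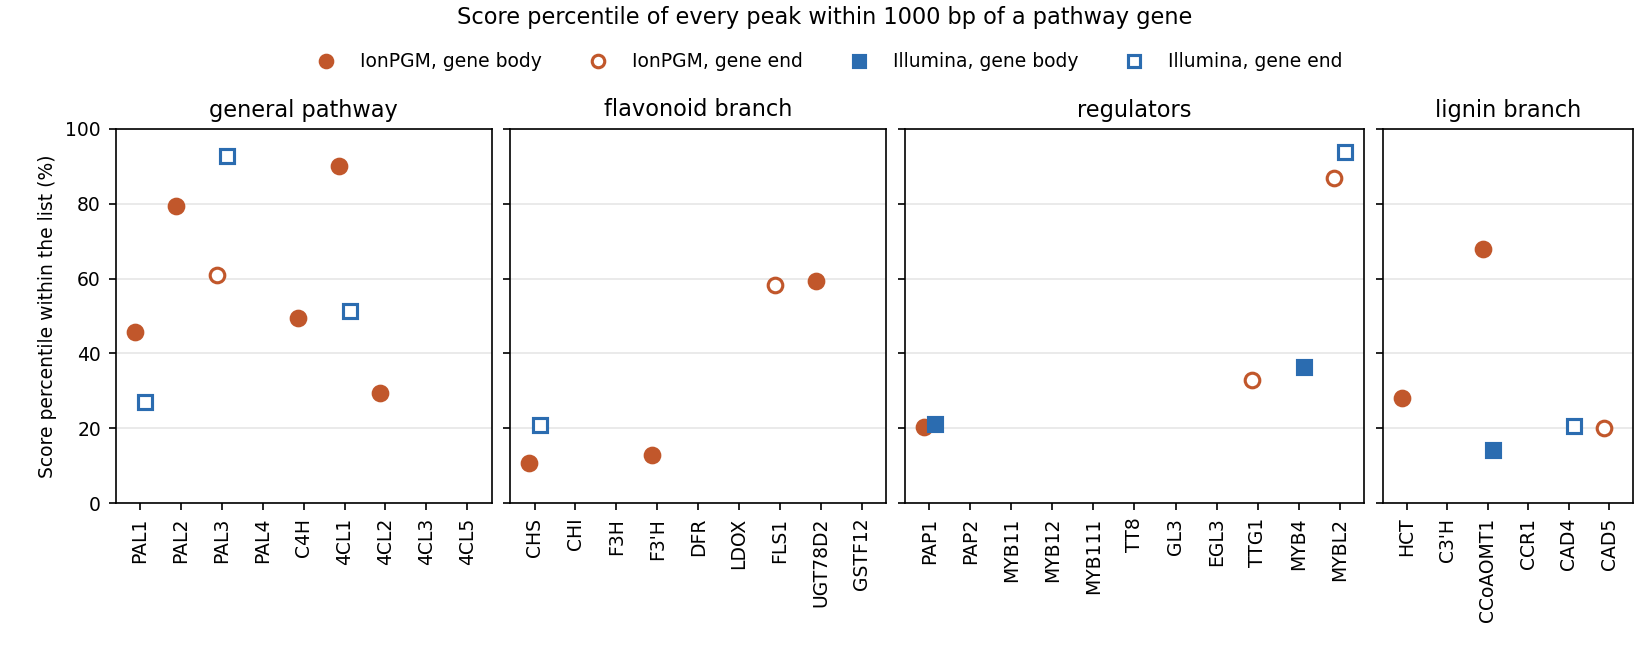
Score percentile within its own list (vertical axis, percent) of each peak at the pathway genes named in the text, in 4 panels by role, with IonPGM peaks as circles, Illumina peaks as squares, gene-body peaks filled and gene-end peaks open. Genes without a symbol had no peak; MYBL2 is high in both lists (87.0 and 93.8), and the filled circles are mostly enzymes.

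In the flavonoid and anthocyanin branch, IonPGM gene-body peaks were present in 3 of 9 enzyme genes (beside 3.0% of all genes). Illumina gene-body peaks and shared peaks were present in 0 of 9 each (beside 1.91% and 6.56%), which is near the background for so few genes. CHS (AT5G13930, also TT4), chalcone synthase, had a broad but low-ranked IonPGM peak inside the gene at chromosome 5: 4489302 to 4489939, of 638 bp and percentile 10.6. The Illumina peak of CHS lay across the lower end, at chromosome 5: 4488266 to 4488574, with percentile 20.8. The peaks of the 2 lists at CHS were 727 bp apart. F3'H (AT5G07990, also TT7), flavonoid 3'-hydroxylase, had an IonPGM peak of 556 bp inside the gene at percentile 13.0. UGT78D2 (AT5G17050), a flavonoid 3-O-glucosyltransferase, had one of 364 bp at percentile 59.3. Neither F3'H nor UGT78D2 had an Illumina peak in the window. FLS1 (AT5G08640), flavonol synthase, had an IonPGM peak outside the gene at percentile 58.4. The midpoint of that peak was 658 bp from FLS1 and lay inside the neighbouring gene AT5G08630. CHI, F3H, DFR, LDOX and GSTF12, which act in flavanone formation, flavanone hydroxylation, the steps to anthocyanidin and anthocyanin transport to the vacuole, had no peak of either list in the window. Distances from these 5 genes to the nearest peak of either list ran from 5609 bp at DFR to 43167 bp at CHI.

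In the lignin branch, CCoAOMT1 (AT4G34050), a caffeoyl-CoA O-methyltransferase, was the one enzyme gene with gene-body peaks of both lists. With PAP1, that makes 2 of the 36 genes (5.56%), beside 1.04% of all genes. Set against the 11 genes with an IonPGM gene-body peak, these 2 are 18.2%, beside 34.7% of all 824 such genes. The IonPGM peak of CCoAOMT1 at chromosome 4: 16310992 to 16312058 was 1067 bp wide, covered 56.2% of the gene and had percentile 67.8. Its Illumina peak at chromosome 4: 16310592 to 16310909 had percentile 14.3. The peaks did not overlap and were separated by 82 bp, so CCoAOMT1 does not count as shared. HCT (AT5G48930), the hydroxycinnamoyl transferase at the entry to the lignin branch, had an IonPGM peak of 519 bp inside the gene at percentile 28.2 and its nearest Illumina peak was 18841 bp from the gene.

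CAD4 and CAD5 encode cinnamyl alcohol dehydrogenases of the last step to monolignols, and each had a peak of 1 list at an end. The Illumina peak at CAD4 (AT3G19450), percentile 20.5, lay outside the gene with its midpoint 756.5 bp from it, and was nearer to AT3G19440. The IonPGM peak at CAD5 (AT4G34230), percentile 20.1, lay outside the gene with its midpoint 254.5 bp from it and 233.5 bp from ALDH3I1, the nearer gene. The near edge of a shared site lay 1396 bp from CAD5, nearest to AT4G34220, with an IonPGM percentile of 35.1 and an Illumina percentile of 89.1. C3'H and CCR1, further lignin enzymes, had no peak in the window, and their nearest peaks were 12936 and 7387 bp away.

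By role, then, IonPGM gene-body peaks were found in 10 of 25 enzyme genes (40.0%) and 1 of 11 regulator genes (9.09%), beside 3.0% of all genes. Shared peaks were found at 1 of 25 enzyme genes, the marginal PAL3, and at 2 of 11 regulators, beside 6.56% of all genes. The 42 related genes counted below did not repeat this split. IonPGM gene-body peaks lay in 4 of their 24 regulators (16.7%) and 2 of 6 lignin genes (33.3%). They lay in 0 of 10 flavonoid and 0 of 2 general genes, near the background for so few genes. Shared peaks were at 2 of the 24 regulators (8.33%), 2 of the 6 lignin genes (33.3%) and 0 of the others. The difference between enzymes and regulators was not tested in either set of genes. The median gene length was 2531 bp for the regulators, and 1774, 2498 and 3389 bp for the flavonoid, lignin and general pathway enzymes. TT8, the longest gene of the group at 4643 bp, had no peak, and a relation between gene length and peaks was not tested. Among all genes within the length range of the group (1246 to 4643 bp), 3.54% had an IonPGM gene-body peak, 2.26% had an Illumina one and 7.2% had a shared peak.

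**Figure D3:**
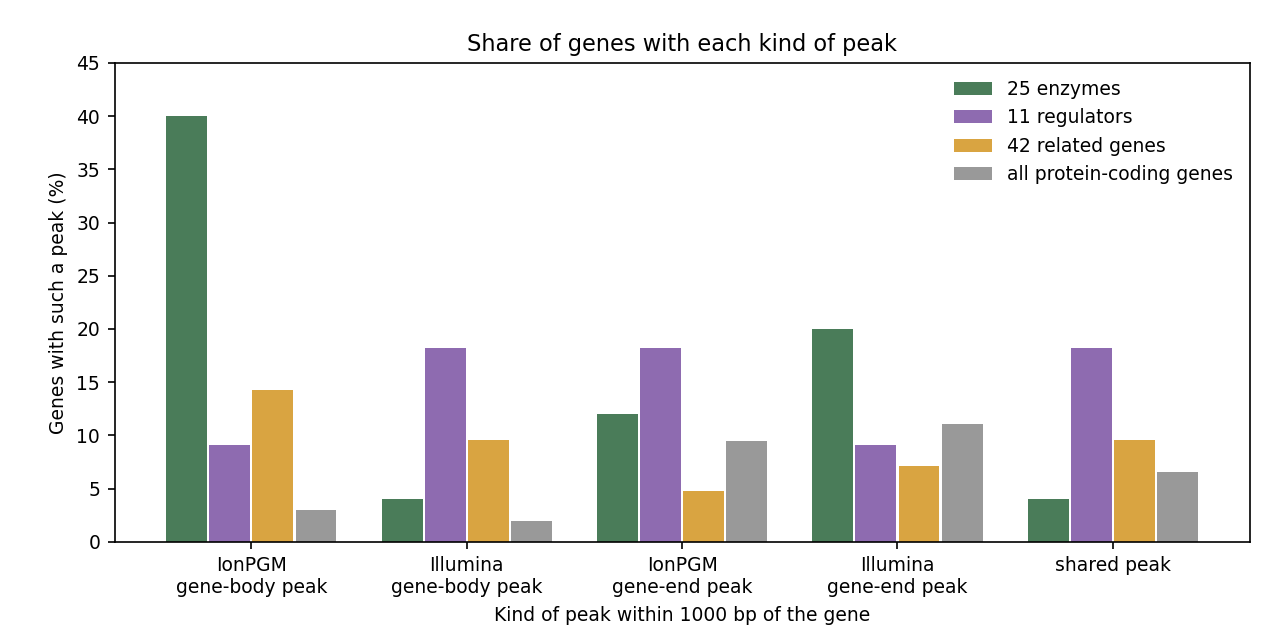
Share of genes (vertical axis, percent) with each kind of peak within 1000 bp, for the 25 enzymes, the 11 regulators, 42 related pathway genes and all 27444 protein-coding genes. The bar for IonPGM gene-body peaks in enzymes stands at 40.0%, beside 3.0% of all genes, while shared peaks stand at 4.0% of enzymes, beside 6.56%.

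The IonPGM gene-body peaks of the group were broad. Their median width was 556 bp (range 200 to 1472 bp, 11 peaks), whereas the median over all 888 IonPGM gene-body peaks was 290.5 bp. Their median percentile was 45.7 (range 10.6 to 90.1), beside 38.7 for all IonPGM gene-body peaks, so their scores spanned most of the list. In the whole IonPGM list 53 nuclear peaks were at least as wide as that of 4CL1 (872 bp). Of these 53, 4 lay in PAL1, PAL2, 4CL1 and CCoAOMT1, and 52 (98.1%) were gene-body peaks of some gene. Broad IonPGM peaks inside genes were thus present in many genes outside the pathway. Among those 53 peaks 29 (54.7%) overlapped an Illumina peak, whereas the 4 in pathway genes overlapped none. The contrast rests on 4 peaks that are themselves among the 53, with a cut-off taken from the group, and it was not tested. Over all widths, 1 of the 11 IonPGM gene-body peaks of the group, that of PAP1, was shared, beside 306 of 888 (34.5%) in the whole list. Of the 11 genes, 6 (PAL2, C4H, 4CL2, F3'H, UGT78D2 and HCT) had no Illumina peak anywhere in the window, which is 54.5%, beside 49.0% of the 824 genes with an IonPGM gene-body peak. Set against whole groups, these 6 are 16.7% of the 36 genes, beside 1.47% of all genes. They are part of the 11 genes with an IonPGM gene-body peak (30.6%, beside 3.0%), so this is not a separate result. The 3 Illumina gene-body peaks of the group were 276 to 318 bp wide, near the 274.5 bp median of all 534 Illumina gene-body peaks.

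**Figure D4:**
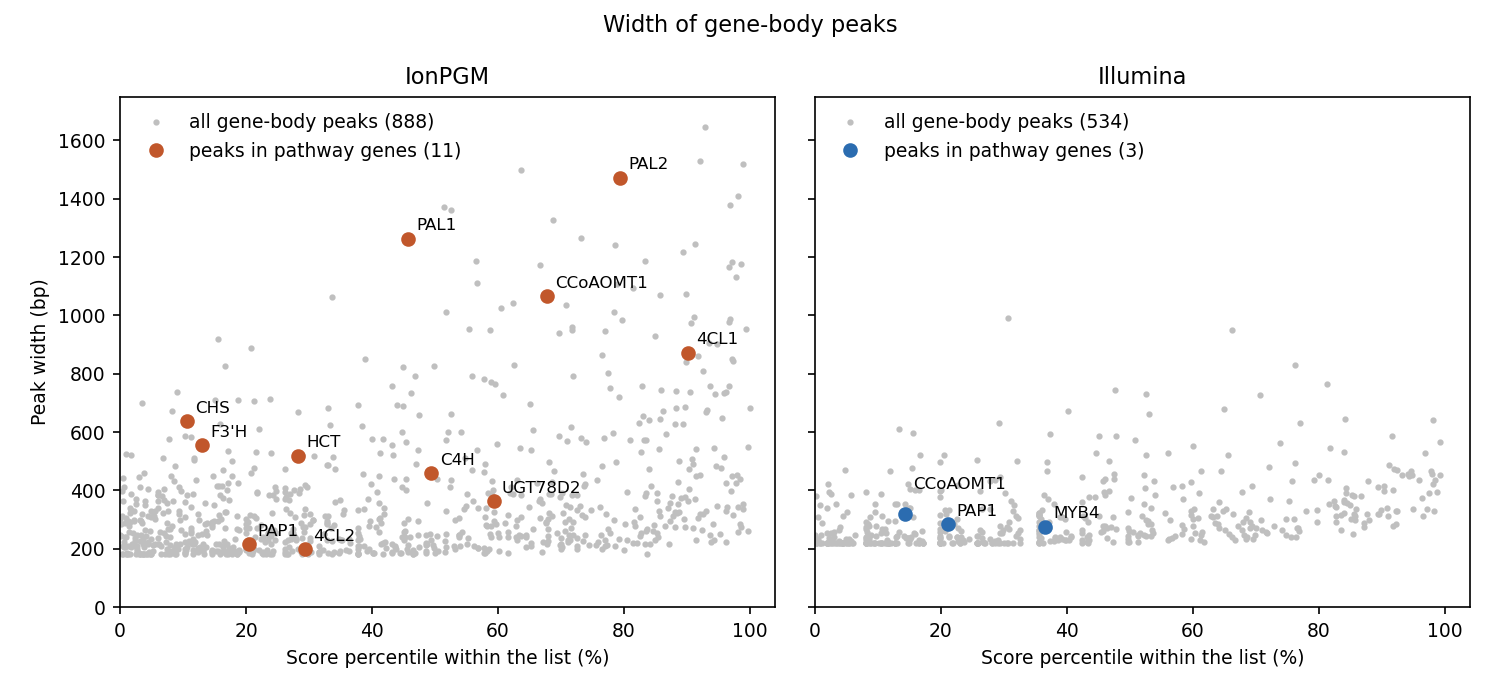
Peak width in bp against score percentile for gene-body peaks of the IonPGM list (left) and the Illumina list (right), with peaks in the pathway genes coloured and named and all others grey. PAL1, PAL2, CCoAOMT1 and 4CL1 lie among the widest IonPGM peaks, from 872 to 1472 bp, and the 3 Illumina peaks lie between 276 and 318 bp.

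A list of 42 related genes of the same pathways, none of them among the 36, was counted in the same way. Shared peaks were present at 4 of 42 (9.52%, beside 6.56% of all genes), IonPGM gene-body peaks in 6 (14.3%, beside 3.0%) and Illumina gene-body peaks in 4 (9.52%, beside 1.91%). The shared sites were at KFB50, FAH1, MYB7 and CCR2. KFB50 (AT3G59940), a Kelch-repeat F-box protein that targets PAL for degradation, had the highest-ranked one, at chromosome 3: 22142063 to 22142285 in the IonPGM list (percentile 83.8) and 22142094 to 22142344 in the Illumina list (percentile 75.3). Its midpoints lay 682 and 637 bp outside the gene. KFB50 also had unshared IonPGM peaks inside the gene, at percentile 13.2, and beyond its higher end, at percentile 46.8 and nearest to AT3G59950, and an unshared Illumina peak across its lower end, at percentile 5.11. FAH1 (AT4G36220), ferulate 5-hydroxylase of syringyl lignin synthesis, had a shared gene-body peak with percentiles 73.8 and 60.0 in the IonPGM and Illumina lists. MYB7 (AT2G16720), a relative of MYB4, had one with 49.4 and 71.8, and CCR2 (AT1G80820), a cinnamoyl-CoA reductase, had one with 44.7 and 42.9. These shared gene-body peaks were 232 to 308 bp wide for IonPGM and 254 to 306 bp wide for Illumina. The medians of all gene-body peaks were 290.5 and 274.5 bp. Shared or not, the 6 IonPGM gene-body peaks of the related genes had a median of 236.5 bp (range 192 to 568 bp). The median was 556 bp for the 11 such peaks of the 36 genes. Compared with the shared ones, the unshared IonPGM peaks inside PAL1 and PAL2 were wider, at 1263 and 1472 bp. Those inside 4CL2 and KFB50 were also unshared but narrower, at 200 and 197 bp. The 10 related flavonoid genes, among them BAN and TT12 of seed tannin synthesis, had no peak of either list in the window. Among all genes 17.7% had one, and 0 of 10 is near that background for so few genes. LBD37, a nitrogen-responsive repressor of anthocyanin genes, had an unshared IonPGM peak of 568 bp inside the gene at percentile 71.0.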

How the data were processed

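Peaks were deposited by the authors as 1 list per library. They used Bowtie 0.12.7, SAMtools 0.1.18, MACS2 and the TAIR10 build, per the submitters' processing notes. Neither the peak threshold nor a control library is given in these sources. The score of each peak is the authors' deposited value, of unstated scale, and was used only for ranks within a list. Intervals were read as 0-based half-open, and positions are printed 1-based. Genes came from the NCBI RefSeq table of TAIR10.1, whose nuclear sequences are those of TAIR10; all 36 loci, and all 42 related loci, were found by identifier. No gene coordinate is printed.

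A peak belonged to every gene whose window of 1000 bp it touched by at least 1 bp, and peaks of the lists were shared at an overlap of 1 bp. The genes, the related list and the windows were chosen with earlier results of these data known, so no test was run, and counts were read against the share of all 27444 genes with the same kind of peak. Distances from a gene to a peak are to its near edge unless the midpoint is named. The counts cover all 36 genes; 1 of them is not reported by name here. Of the related list, those with a shared peak are named and, chosen after their values were seen, BAN, TT12 and LBD37. The peaks described beyond the windows (nearest to MYB114, DMR6, AT4G34220 and AT3G53270, and at PAP1) and the comparison of peak widths were also chosen after the values were seen. Motif shares were planned but not computed, since no genome sequence was used here. The overlap code was tested on simulated data. Python 3.11.15, NumPy 2.4.6, pandas 2.3.3 and Matplotlib 3.10.9 were used.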

Additional observations from a re-analysis of the deposited data

How the results depend on the processing

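Of 48 recomputed counts that a setting could change, 36 stayed within 1.5 times the reported count. Peaks above the 50th score percentile left 7 genes with an IonPGM peak (5.99% of all genes had one), 3 with an Illumina peak (6.22%), 4 with an IonPGM gene-body peak (1.25%), 0 with an Illumina gene-body peak (0.696%), 3 each with an IonPGM or Illumina gene-end peak (4.83% and 5.56%), and 2 related genes with a shared peak (3.21%). Windows of 500 bp left 3 genes each with an IonPGM or Illumina gene-end peak (8.33% of the 36), near the 7.17% and 8.48% of all genes. Assigning peaks to the nearest gene left 2 with an IonPGM gene-end peak (5.46% of all genes). A gene body beginning 500 bp inside both ends gave 8 IonPGM gene-end genes, with 5 reported (10.6% of all genes), and 0 Illumina gene-body genes, with 3 reported (0.966%). Genes with a shared peak ranged from 2 to 4 of 36. PAL3 was lost under windows of 500 bp (5.17% of all genes had a shared peak), by midpoint (6.26%) and by nearest gene (4.43%). PAP1 was lost above the 50th percentile (3.21% of all genes), and CAD5 was gained within 2000 bp (8.89%). The outer window and the midpoint rule cannot change a gene-body call. By nearest gene the 11 genes with an IonPGM gene-body peak were the same (2.95% of all genes). They were also the same with the whole peak inside the gene (3.38%), a setting chosen after seeing the data. TTG1 was gained at a margin of 100 bp, giving 12 genes (3.63% of all genes). At a margin of 500 bp 4CL2, PAP1 and UGT78D2 were lost, leaving 8 genes (1.8% of all genes). No paired analysis was possible because each sequencer has 1 library. The planned motif shares were not run. Read depth is unknown, so a gene without a peak may hold binding too weak to be called.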
